A study of Mus musculus with 12 samples.

Results

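The 10 genes Adgre1, Cd163, Mertk, C1qa, C1qb, C1qc, Vcam1, Hmox1, Spic and Slc40a1, all known from the macrophages of the spleen, were taken by symbol from a count table of 28188 genes, and all 10 were present. They were measured by RNA sequencing of poly(A)-selected libraries from splenic B cells and splenic dendritic cells, in 4 groups of 3 libraries. The mice were 12 weeks old, and the labels list no treatment. They were either NOD, a strain that develops autoimmune diabetes spontaneously and served as the control, or NOD.Idd2, in which the Idd2 locus is of B10 origin. Each strain gave 1 group of B cells and 1 group of dendritic cells. How the cells were isolated, and whether each library came from its own animal, is not given in the sources used here, so p-values reflect the variation among these libraries, which may be technical. The question asked here was how much RNA of these genes the isolates held, and whether that amount differed between the strains or between the cell types.

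Macrophages of the splenic red pulp engulf aged red cells, break down their heme and return the iron to the blood. Spic, an ETS family transcription factor, is needed for their development in the mouse. Heme released from red cells lifts the repressor Bach1 from its targets, among which are Spic and Hmox1. Macrophages of the white pulp clear dying lymphocytes, a task in which Mertk and C1q take part, and several of the 10 genes are also made by other myeloid cells, by stromal cells or by B cells.

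The 3 chains of C1q, the recognition unit of the classical complement pathway, are encoded side by side. On the GRCm38 build C1qb, C1qc and C1qa lie in this order on the minus strand of chromosome 4 between 136880129 and 136898803, with 3616 bases between the first pair and 2851 between the second (GENCODE vM21). Their profiles over the libraries are compared below, and the window of 250 bases before the RefSeq start of C1qb (GRCm38.p6, chr4:136886201-136886450, minus strand) is shown for this reason, with a match to GAGGAA, a purine-rich core of the kind ETS factors bind, in capitals. The window before Cd163 (GRCm38.p6, chr6:124304401-124304650, plus strand) is shown because Cd163 was the only member that passed the test between the strains in dendritic cells.
C1qb: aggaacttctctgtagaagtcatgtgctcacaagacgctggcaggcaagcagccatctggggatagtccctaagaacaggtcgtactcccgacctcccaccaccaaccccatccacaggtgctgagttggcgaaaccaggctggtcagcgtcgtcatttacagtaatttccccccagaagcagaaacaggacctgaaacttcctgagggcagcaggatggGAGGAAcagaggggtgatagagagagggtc
Cd163: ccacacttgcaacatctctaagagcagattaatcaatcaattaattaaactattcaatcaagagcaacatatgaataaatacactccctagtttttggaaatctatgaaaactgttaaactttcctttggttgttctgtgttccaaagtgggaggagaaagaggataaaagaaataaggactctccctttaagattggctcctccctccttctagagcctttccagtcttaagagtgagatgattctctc

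Such windows were found for 5 of the 10 genes, the others being Mertk, C1qc and Spic. The ETS-type letters GAGGAA were searched on both strands, together with TGAGTCA, which is the core of the Maf recognition element that Bach1 binds, and with the TATA box letters TATAAA. The first motif began 30 bases before the start of C1qb on the strand of the gene and occurred on the other strand before C1qc, and the remaining windows held none of the 3 motifs. Over 32851 windows of the same length, the ETS-type motif was found in 23.3%, the Maf core in 4.46% and the TATA box in 12.4%. A match of 6 letters describes the sequence and shows no binding.

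The other members lay on 7 further chromosomes, namely Adgre1 on chromosome 17 (57358691 to 57483527), Cd163 on 6 (124304656 to 124330527), Mertk on 2 (128698956 to 128802894), Vcam1 on 3 (116109949 to 116129688), Hmox1 on 8 (75093621 to 75100589), Spic on 10 (88674772 to 88685015) and Slc40a1 on 1 (45908068 to 45926523). Counts were given per gene symbol, and whether they covered exons alone or whole genes is not stated. Mertk shares positions with Gm14011 on the opposite strand and with the small nucleolar RNA gene Gm23172, and Vcam1 with the antisense gene Gm43109. Because the use of strand in counting is not stated either, it cannot be told whether reads of these neighbours entered the counts of Mertk and Vcam1.

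The 6 B cell libraries held 40344883 to 44632276 counts, the NOD dendritic cell libraries 24627488 to 26811142 and the NOD.Idd2 dendritic cell libraries 8663421 to 30337812, the lowest being NOD.Idd2 replicate 3. Replicate 3 of the B cells stood apart in both strains. The chi-square per gene between it and the other libraries of its group was 38.2 and 42.8 in NOD and 37.3 and 39.5 in NOD.Idd2, against 7.28 and 7.78 between replicates 1 and 2. Cd79a, a chain of the B cell receptor complex, averaged 1554 and 1688 CPM (counts scaled to library size) in the NOD and NOD.Idd2 B cell groups against 4.14 and 2.64 CPM in the dendritic cell groups, and Itgax, the CD11c integrin of dendritic cells, 2.90 and 2.91 against 2127 and 2033 CPM. The cell types also differed in sex. Xist, which coats the inactive X chromosome of females, stood at 1564 to 2088 CPM in B cells and at 1 to 4 counts in dendritic cell libraries. The Y-linked gene Ddx3y ran from 239 to 306 CPM in dendritic cells, and all B cell libraries had 0 counts of it. Every difference between cell types below is therefore also one between sexes, and the parts of cell type and sex cannot be told apart.

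All 10 genes were higher in dendritic cells than in B cells in both strains, and they fell into 2 classes by the size of the difference. Adgre1, Cd163, Mertk, the 3 C1q genes and Vcam1 were 10.4-fold to 19.9-fold higher in the NOD comparison. Hmox1, Spic and Slc40a1 were 1.76-fold to 3.34-fold higher. For each of the 10, every dendritic cell library lay above every B cell library of the same strain, which held for 38.4% of the 16588 genes tested in NOD and 37.8% in NOD.Idd2. With edgeR's quasi-likelihood test and a threshold of 0.05 on the adjusted p, 10 of 10 passed as higher in each strain, beside 37.7% of all genes in NOD and 36.7% in NOD.Idd2. Mertk passed the filter on low counts through its dendritic cell libraries, so that its difference had to follow. In such bulk libraries fewer cells of a type and less RNA per cell cannot be told apart.

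**Figure D1:**
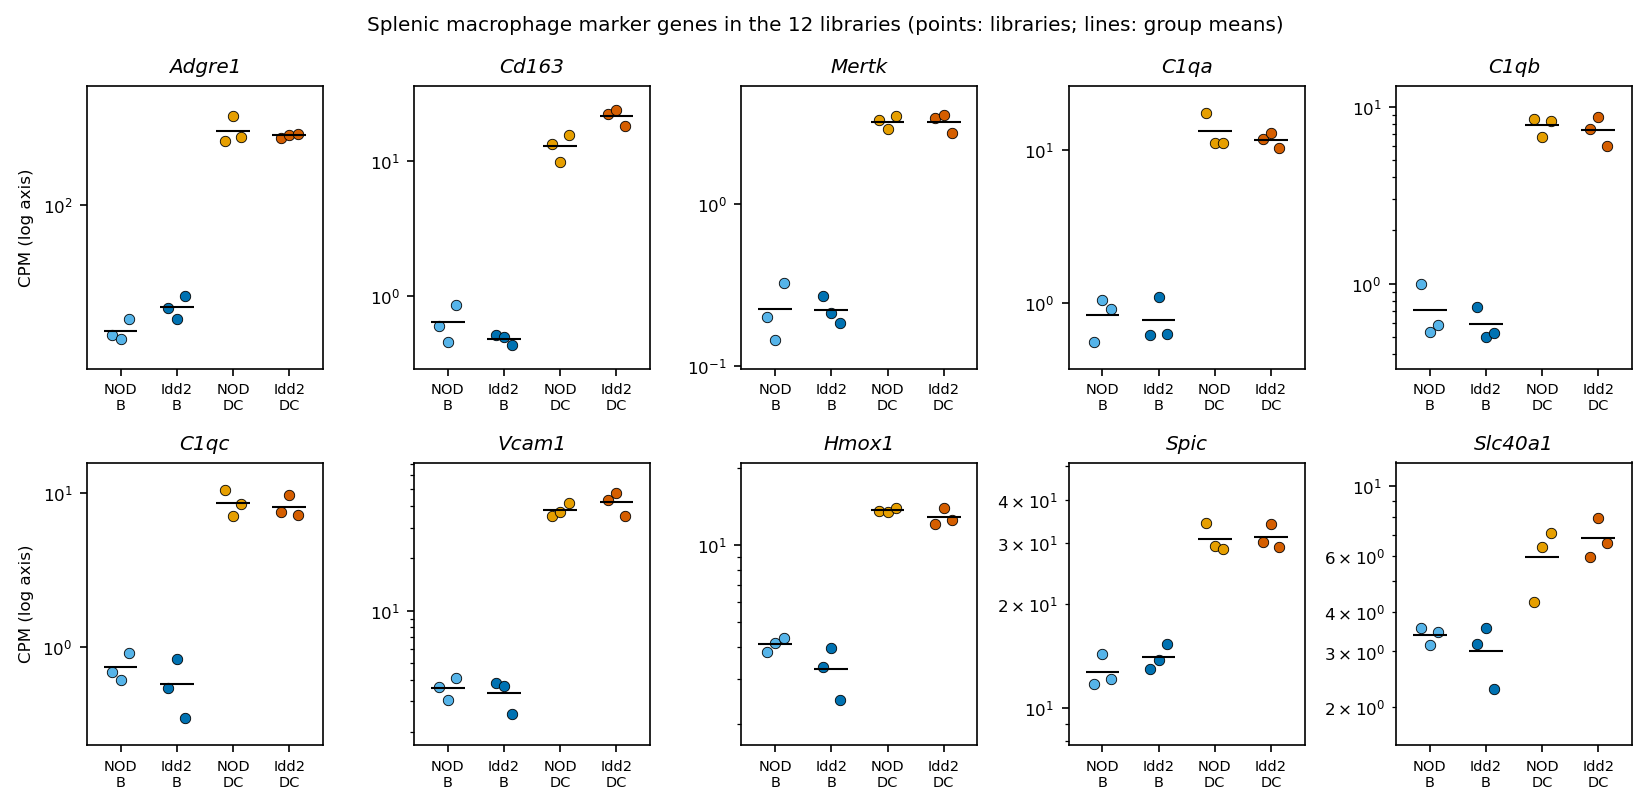
CPM on a log axis for the 10 genes in each library, with points for libraries 1 to 3 from left to right in each group and lines for group means. In every panel the 6 dendritic cell points lie above the 6 B cell points, with the narrowest gap for Slc40a1 and with the NOD.Idd2 points above the NOD points in dendritic cells for Cd163 alone.

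Adgre1 encodes F4/80, a surface receptor of the adhesion class found on red pulp macrophages and, at lower levels, on monocytes, eosinophils and some dendritic cells. In B cells its level was 16.9, 15.9 and 20.8 CPM in NOD and 24.2, 21.0 and 28.6 CPM in NOD.Idd2. In dendritic cells it was 239, 342 and 254 CPM in NOD and 251, 263 and 267 CPM in NOD.Idd2. NOD dendritic cell library 2 stood highest, and the other 5 dendritic cell libraries lay within 239 to 267 CPM. The log2 difference between cell types was 3.96 (SE 0.16, adjusted p = 1.03e-10) in NOD and 3.40 (SE 0.15, adjusted p = 3.85e-10) in NOD.Idd2. Adgre1 alone made up 67.1% ± 5.57 (SD, n = 3) of the summed CPM of the 10 genes in NOD dendritic cells and 39.7% ± 3.11 in NOD B cells.

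Cd163, the scavenger receptor that takes up complexes of haemoglobin and haptoglobin, was at 0.601, 0.459 and 0.861 CPM in NOD B cells and 0.517, 0.497 and 0.437 CPM in NOD.Idd2 B cells. In dendritic cells it was at 13.3, 9.79 and 15.5 CPM in NOD and at 22.2, 23.7 and 18.1 CPM in NOD.Idd2. The dendritic cell groups did not overlap, whereas the B cell groups, at 19 to 37 counts a library, did. Cd163 had the largest difference between cell types of the 10 genes in each strain, with a log2 value of 4.32 (SE 0.23, adjusted p = 1.82e-09) in NOD and 5.46 (SE 0.24, adjusted p = 2.80e-10) in NOD.Idd2.

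Mertk, a receptor tyrosine kinase that binds dying cells through bridging proteins, was the lowest of the 10 genes in CPM. It had 9, 6 and 14 counts in the NOD B cell libraries and 11, 9 and 8 in the NOD.Idd2 ones, or 0.145 to 0.326 CPM. In dendritic cells it reached 3.28, 2.89 and 3.47 CPM in NOD and 3.37, 3.56 and 2.73 CPM in NOD.Idd2. The strains overlapped in both cell types. The log2 difference between cell types was 3.82 (SE 0.27) in NOD and 3.86 (SE 0.27) in NOD.Idd2.

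The C1q chains were also low in B cells. C1qa stood at 0.556, 1.04 and 0.908 CPM in NOD B cells and 0.616, 1.09 and 0.621 CPM in NOD.Idd2 B cells, against 17.5, 11.1 and 11.2 CPM in NOD dendritic cells and 11.8, 12.9 and 10.3 CPM in NOD.Idd2 dendritic cells. NOD dendritic cell library 1 stood apart from the other 5. C1qb ran from 0.497 to 1.0 CPM over the 6 B cell libraries and from 6.02 to 8.76 CPM over the 6 dendritic cell libraries, and C1qc from 0.345 to 0.908 and from 7.05 to 10.5 CPM. Strains overlapped for all 3 genes in both cell types. The log2 differences between cell types were 3.99 (SE 0.28) for C1qa, 3.46 (SE 0.25) for C1qb and 3.55 (SE 0.27) for C1qc in NOD, and 3.91, 3.67 and 3.83 in NOD.Idd2, with adjusted p of at most 9.30e-08.

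Within the C1q counts, the balance of the chains was steady in dendritic cells. C1qa took 44.2% ± 3.92 of the C1q counts in NOD and 43.0% ± 1.65 in NOD.Idd2 dendritic cells (SD, n = 3 libraries). C1qb took 26.7% ± 3.21 and 27.2% ± 1.39, and C1qc 29.1% ± 0.975 and 29.8% ± 1.62. In B cells the C1qa share was 36.8% ± 11.5 in NOD and 39.7% ± 6.51 in NOD.Idd2, a spread wide enough to take in the dendritic cell means. The dendritic cell groups rested on 2261 and 1750 C1q counts and the B cell groups on 294 and 244.

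Vcam1, the adhesion molecule that red pulp macrophages share with stromal and endothelial cells, was at 3.63, 3.07 and 4.12 CPM in NOD B cells and 3.84, 3.69 and 2.53 CPM in NOD.Idd2 B cells. It was at 35.1, 36.8 and 41.3 CPM in NOD dendritic cells and at 43.5, 47.3 and 34.9 CPM in NOD.Idd2 dendritic cells. NOD.Idd2 library 3 held the lowest of the dendritic cell values and library 2 the highest, so the strains overlapped. The log2 difference between cell types was 3.38 (SE 0.16, adjusted p = 6.84e-10) in NOD and 3.66 (SE 0.16, adjusted p = 3.85e-10) in NOD.Idd2. Stromal markers were scarce in the same dendritic cell libraries, where 11 such genes summed to 4.26 ± 0.671 CPM in NOD, of which Pdgfrb gave 3.40 CPM, and Col3a1, Ccl19 and Dcn had at most 0.0128 CPM each on average. The endothelial list of 9 genes summed to 46.4 ± 0.880 CPM there, mostly Vwf at 27.8 CPM, Kdr at 9.53 CPM and Stab2 at 6.09 CPM. Cdh5 was at 2.30 CPM, against 1.84 CPM in NOD B cells. Tek, Emcn, Egfl7, Madcam1 and Ptprb averaged 0.0128 to 0.392 CPM in these dendritic cells. The part of stromal or endothelial cells in the Vcam1 level was not tested.

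Spic was the member with the highest B cell level after Adgre1. It stood at 11.7, 14.3 and 12.2 CPM in NOD B cells and 13, 13.8 and 15.3 CPM in NOD.Idd2 B cells, with 522 to 664 counts a library. The dendritic cell levels were 34.2, 29.4 and 28.9 CPM in NOD and 30.2, 34.0 and 29.2 CPM in NOD.Idd2. The difference between cell types was 2.42-fold in NOD (log2 1.28, SE 0.10, adjusted p = 1.07e-07) and 2.23-fold in NOD.Idd2 (log2 1.16, SE 0.10, adjusted p = 3.17e-07).

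Hmox1 encodes heme oxygenase, which opens the heme ring, and Slc40a1 encodes ferroportin, the channel through which cells export iron. Hmox1 was at 3.83, 4.13 and 4.35 CPM in NOD B cells and 3.35, 3.97 and 2.48 CPM in NOD.Idd2 B cells, against 13.6, 13.5 and 14.1 CPM in NOD dendritic cells and 12.2, 14 and 12.6 CPM in NOD.Idd2 dendritic cells. The 3 NOD dendritic cell libraries agreed most closely of any member and group there, with an SD of 0.327 on a mean of 13.7 CPM. Slc40a1 was at 3.56, 3.14 and 3.47 CPM in NOD B cells and 3.18, 3.55 and 2.28 CPM in NOD.Idd2 B cells, against 4.31, 6.44 and 7.13 CPM and 5.99, 7.93 and 6.59 CPM in the 2 dendritic cell groups. Slc40a1 had the smallest difference between cell types in NOD, with a log2 value of 0.81 (SE 0.21, adjusted p = 0.00323), and 1.19 (SE 0.21) in NOD.Idd2. For Hmox1 these values were 1.74 (SE 0.14) and 1.98 (SE 0.15).

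**Figure D2:**
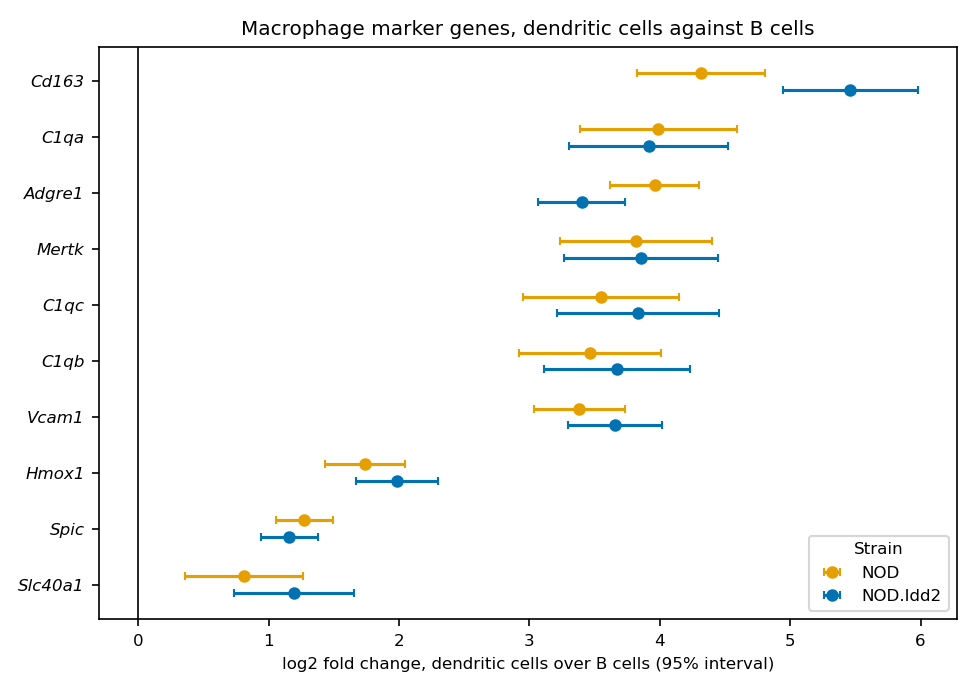
Log2 fold change between dendritic cells and B cells for the 10 genes, with 95% intervals from the fit of all 12 libraries, in NOD and in NOD.Idd2. Hmox1, Spic and Slc40a1 lie between 0.81 and 1.98, and the other 7 between 3.38 and 5.46.

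Expressed as a share of the dendritic cell mean, the B cell level of the first 7 genes ranged from 2.27% (Cd163 in NOD.Idd2) to 9.56% (Vcam1 in NOD). For Hmox1, Spic and Slc40a1 it ranged from 25.3% to 56.9%. Of 9 dendritic cell markers, 7 had shares from 0.0573% (Clec4a4) to 0.685% (Zbtb46) in NOD, among them Itgax at 0.137%, while Itgae was at 7.23% and Dpp4 at 30.7%. Hmox1, Spic and Slc40a1 together made up 45.3% ± 4.33 of the summed CPM of the 10 genes in NOD B cells and 39.9% ± 3.03 in NOD.Idd2 B cells, but 12.4% ± 1.60 and 12.6% ± 0.509 in the dendritic cell groups (SD, n = 3). These 3 genes were set apart by their smaller difference between cell types in the same libraries. Their higher B cell shares therefore follow from that choice and restate it.

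Levels of different genes were compared per kilobase of exon in GENCODE vM21. In NOD dendritic cells Adgre1 led with 85.9 ± 17.1 CPM per kilobase, followed by C1qa with 12.8 ± 3.53, Spic with 8.02 ± 0.760, Hmox1 with 7.82 ± 0.187 and C1qb with 7.22 ± 0.890. Among these last 3, each pair of means differed by less than the larger SD of the pair. C1qc (4.48 ± 0.899) and Vcam1 (4.25 ± 0.362) differed by less than the larger SD too, as did Mertk (0.741 ± 0.0680) and Slc40a1 (0.662 ± 0.164), and Cd163 stood between these pairs at 2.35 ± 0.527. In NOD B cells the order was Adgre1 (5.52 ± 0.802), Spic (3.31 ± 0.363) and Hmox1 (2.34 ± 0.151), with the other 7 at 0.803 CPM per kilobase or less.

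The strain comparison in dendritic cells found 1 of the 10 genes changed. Cd163 rose 1.70-fold in NOD.Idd2, from 12.9 ± 2.88 to 21.3 ± 2.90 CPM (SD, n = 3), with a log2 value of 0.77 (SE 0.15, 95% interval 0.45 to 1.09, adjusted p = 0.0259 by edgeR). The lowest NOD.Idd2 library, at 18.1 CPM and 159 counts, lay above the highest NOD library, at 15.5 CPM and 402 counts. Over all 14441 genes tested in this comparison 1.29% passed, and 0.665% passed as higher in NOD.Idd2. Strains that did not overlap were found for 16.5% of all genes, and for 7.06% with NOD.Idd2 higher. The Cd163 call was lost when any NOD.Idd2 library was left out, with adjusted p = 0.125 without replicate 1, 0.205 without replicate 2 and 0.0681 without replicate 3, and in a fit of all 12 libraries (0.119). Its log2 value stayed between 0.61 and 0.93 when single libraries were left out.

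The other 9 genes did not pass in dendritic cells, their smallest adjusted p being 0.498 for Vcam1 (log2 0.19, 95% interval -0.02 to 0.40). The tightest interval was that of Spic, at -0.14 to 0.22 around 0.04, and those of Hmox1 (-0.27 to 0.14) and Adgre1 (-0.31 to 0.15) were similar. The C1q genes gave -0.15 for C1qa (-0.51 to 0.22), -0.03 for C1qb (-0.35 to 0.30) and -0.05 for C1qc (-0.41 to 0.31). For Mertk the value was 0.05 (-0.32 to 0.43) and for Slc40a1 0.22 (-0.19 to 0.63). The median over the 10 genes was 0.01, and over all genes tested 6.03e-04. Their summed level was 412 ± 46.4 CPM in NOD and 405 ± 17.5 CPM in NOD.Idd2 dendritic cells, and without Adgre1 134 ± 9.03 and 145 ± 17.1 CPM.

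Some markers of monocytes were also higher in NOD.Idd2 dendritic cells. The 11 monocyte genes summed to 1446, 1106 and 1290 CPM in NOD and to 1637, 1738 and 1594 CPM in NOD.Idd2, and the strains did not overlap. Of the 11, 2 passed as higher in NOD.Idd2 and 0 as lower, and 8 had log2 values above 0. Among all genes tested, 0.665% passed as higher. Single genes whose strains did not overlap made up 16.5%, and those with NOD.Idd2 higher 7.06%. DESeq2 called 1 of the 11, limma-voom 3 and a fit blocked by replicate number 3. Lyz2, the lysozyme of myeloid cells, rose from 517 ± 88.7 to 724 ± 67.2 CPM (log2 0.50, SE 0.10, adjusted p = 0.0383), and Ace, the angiotensin-converting enzyme found on patrolling monocytes, from 94.0 ± 18.0 to 141 ± 3.86 CPM (log2 0.61, SE 0.11, adjusted p = 0.0176). Ccr2, the chemokine receptor of inflammatory monocytes, was at 247 ± 57.6 and 360 ± 4.97 CPM (adjusted p = 0.0515) and Treml4 at 87.3 ± 10.1 and 88.4 ± 5.28 CPM. Plac8, which B cells also make, was at 247 ± 10.9 and 226 ± 14 CPM (log2 -0.12, adjusted p = 0.509). Ly6c2 and Chil3, which define inflammatory monocytes, were at 0.714 and 0.622 CPM in NOD and at 0.593 and 0.501 CPM in NOD.Idd2 on average. The part of such cells in the Cd163 difference was not tested. Leaving out a NOD.Idd2 library ended the calls of Lyz2 (adjusted p 0.115 to 0.233) and Ace (0.0800 to 0.121), as did the fit of all 12 libraries (0.226 and 0.0574), and Lyz2 was also lost without NOD replicate 2 (0.0569) and with DESeq2 (0.0625).

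**Figure D3:**
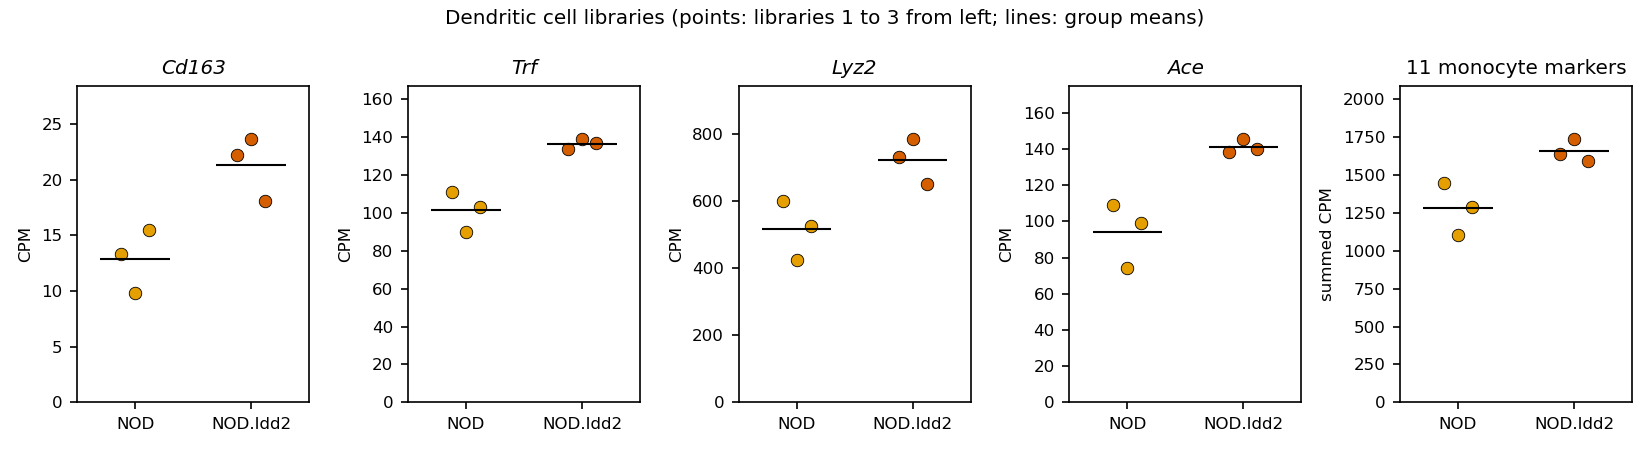
CPM in the 3 NOD and 3 NOD.Idd2 dendritic cell libraries for Cd163, Trf, Lyz2 and Ace, and the summed CPM of 11 monocyte markers, on axes that start at 0. In each panel the NOD.Idd2 points lie above the NOD points, and NOD library 2 is the lowest.

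In B cells none of the 9 members tested passed by edgeR between the strains, beside 0.16% of 15011 genes, and Mertk was below the filter on low counts. At an unadjusted p under 0.05 there was 1, Adgre1, and the count was 0 by limma-voom and 1 by DESeq2, again Adgre1. Adgre1 was at 15.9 to 20.8 CPM in NOD and 21.0 to 28.6 CPM in NOD.Idd2 B cells, so that the strains did not overlap, as for 12.8% of all genes tested, 6.8% with NOD.Idd2 higher. Its log2 value was 0.46 (SE 0.14, 95% interval 0.12 to 0.80) with adjusted p = 0.750 by edgeR and 0.0421 by DESeq2. With the replicate number as a block, adjusted p = 0.00145 for Adgre1, at an unchanged log2 value of 0.46, and the number of calls over all genes went from 24 to 156. Without both libraries numbered 3 it was 0.173.

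The summed level of the 10 genes in B cells was 44.8 ± 3.19 CPM in NOD and 50.9 ± 2.11 CPM in NOD.Idd2, and without Adgre1 27.0 ± 1.04 and 26.3 ± 1.74 CPM. Of the 9 tested genes 7 had log2 values below 0, with a median of -0.18 against 0.01 over all genes. The largest of these were -0.41 for Cd163 (95% interval -1.08 to 0.27), -0.36 for C1qc (-1.19 to 0.46) and -0.33 for Hmox1 (-0.76 to 0.10), and their adjusted p were at least 0.811. Spic was at 0.14 (-0.12 to 0.39). Genes of eosinophils, which also carry F4/80, summed to 54.8 to 60.3 CPM in NOD and 63.3 to 65.2 CPM in NOD.Idd2 B cells without overlap. Nearly all of this was Il5ra, at 56.9 ± 3.41 and 62.9 ± 0.794 CPM, a receptor chain that some B cells also make. Single genes whose strains did not overlap made up 12.8% of all genes tested in B cells, and those with NOD.Idd2 higher 6.8%. Of the 3 eosinophil genes tested, 0 passed by edgeR, and 1 had an unadjusted p under 0.05. Siglecf and Epx had 0 to 3 counts in each B cell library and Ear6 0 or 1, whereas Ccr3 had 19 to 25 and Prg2 28 to 57. Of the 11 monocyte genes, 10 had log2 values below 0 between the strains in B cells, with a median of -0.44. None passed by edgeR or limma-voom, 3 had an unadjusted p under 0.05, 1 passed as lower by DESeq2 and 2 with the replicate block.

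**Figure D4:**
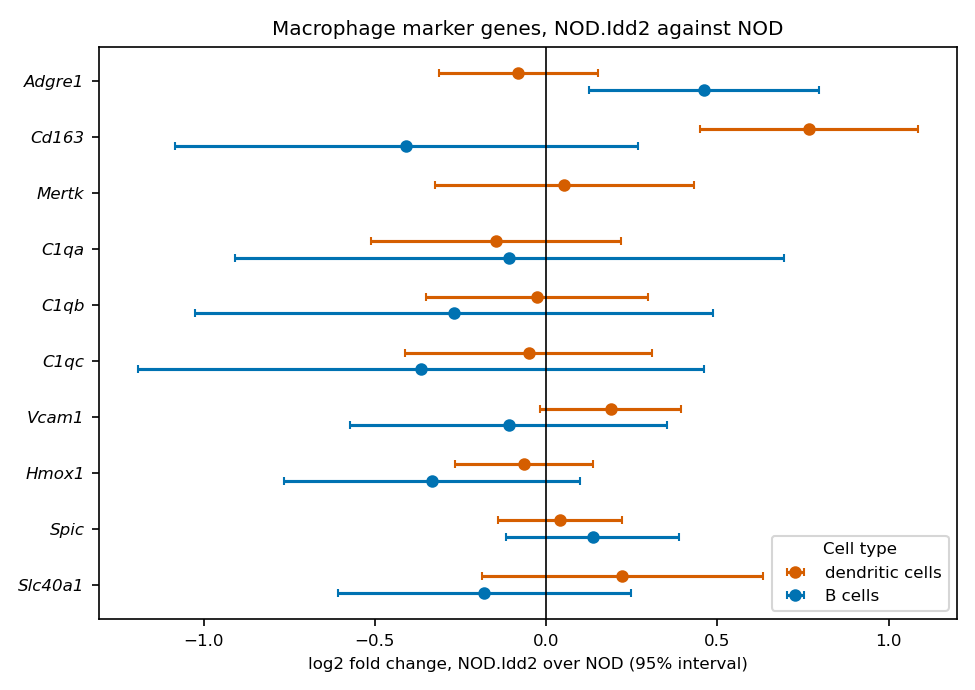
Log2 fold change between NOD.Idd2 and NOD for the 10 genes, with 95% intervals, from the fits of the 6 dendritic cell libraries and of the 6 B cell libraries. The Cd163 interval in dendritic cells (0.45 to 1.09) and the Adgre1 interval in B cells (0.12 to 0.80) leave 0 outside, and Mertk was not tested in B cells.

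The strain effect itself was compared between the cell types as an interaction in the fit of 12 libraries, where 0.109% of 16588 genes passed. None of the 10 genes did by edgeR, DESeq2 or limma-voom, and 2 had an unadjusted p under 0.05 in edgeR. For Cd163 the strain effect was 1.15 higher on the log2 scale in dendritic cells than in B cells (95% interval 0.42 to 1.87, adjusted p = 0.345). For Adgre1 it was -0.56, thus lower in dendritic cells (95% interval -1.0 to -0.12, adjusted p = 0.482). The remaining 8 values ran from -0.12 for Spic to 0.38 for Slc40a1.

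Among 16 further macrophage genes, 13 were higher and 1 lower in NOD dendritic cells than in NOD B cells, and 14 and 1 in NOD.Idd2, where 37.7% and 36.7% of all genes passed as higher. Of these 16, 4 (Fcgr1, Pparg, Timd4 and Trf) were below the filter within the B cell libraries, and all 4 were among the higher ones, which follows from the filter. The companion genes named here and in the next paragraphs for the difference between cell types were chosen after their values were seen. Cd68, a lysosomal protein of phagocytes, was at 237 ± 14.5 against 8.62 ± 1.18 CPM in NOD (log2 4.78, SE 0.10), and Itgad, an integrin chain of red pulp macrophages, at 105 ± 7.41 against 1.51 ± 0.141 CPM (log2 6.12, SE 0.12). Other genes by which splenic macrophages are known were close to 0 in every group. Cd5l, a secreted protein of red pulp macrophages in the mouse, averaged 0.300 to 0.352 CPM in all 4 groups, and Marco of the marginal zone 0.170 to 0.272 CPM. Vsig4, which was on the complement list and not on a macrophage list, had at most 1 count in any library. Siglec1, of the metallophilic macrophages, was at 1.39 ± 0.793 CPM in NOD dendritic cells, whereas Cd209b was at 20.1 ± 2.73 CPM there and at 0.0303 CPM in NOD B cells. Marco, Siglec1 and Cd209b were also below the filter within the B cell libraries, so that the Cd209b difference follows from the filter. Apoe was lower in dendritic cells, at 9.02 ± 4.02 against 20.1 ± 0.752 CPM.

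Of the 15 further macrophage genes tested between the strains in dendritic cells, 1 passed by edgeR, 2 by DESeq2 and 1 by limma-voom. Over all genes 1.29% passed by edgeR, and 0.665% as higher in NOD.Idd2. Trf, the iron carrier transferrin, was at 111, 89.8 and 103 CPM in NOD and at 133, 139 and 137 CPM in NOD.Idd2 dendritic cells, and had 0 to 4 counts in each B cell library. It rose 1.36-fold (log2 0.45, SE 0.07, adjusted p = 0.00867). The call was kept without NOD.Idd2 replicate 1 (0.0472) but lost without replicate 2 (0.0758) or 3 (0.0758) and in the fit of all 12 libraries (0.104). Timd4, a receptor for dying cells, was at 3.50 ± 0.408 and 5.36 ± 0.488 CPM (adjusted p = 0.0773) and Hpgd at 3.80 ± 0.191 and 6.16 ± 0.884 CPM (adjusted p = 0.0625). In B cells none of 12 passed by edgeR, DESeq2 or limma-voom, with 2 at an unadjusted p under 0.05. The list summed to 552 ± 25.0 and 589 ± 12.7 CPM in the NOD and NOD.Idd2 dendritic cells.

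Heme and iron genes differed in direction between the cell types, with 11 of 20 tested higher and 4 lower in NOD dendritic cells, beside 37.7% of all genes higher. Cybrd1, among the higher genes, was below the filter within the B cell libraries. Bach1, the heme-sensing repressor, was at 204 ± 8.76 against 49.6 ± 2.03 CPM (log2 2.04, SE 0.07), and Tfrc, the receptor that takes up transferrin, at 670 ± 46.3 against 106 ± 4.03 CPM (log2 2.65, SE 0.06). Fth1, the ferritin heavy chain, was at 882 ± 23.0 against 571 ± 27.0 CPM. Of the enzymes that act after heme oxygenase, Blvra was higher in dendritic cells (19.1 ± 0.839 against 11.7 ± 0.285 CPM) and Blvrb lower (5.86 ± 0.617 against 28.5 ± 0.682 CPM). Between the strains none of 19 passed by edgeR, DESeq2 or limma-voom in either cell type, with 4 at an unadjusted p under 0.05 in dendritic cells and 3 in B cells. A fit blocked by replicate number called 1 in dendritic cells and 0 in B cells.

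Of the complement genes beside C1q, 10 of 15 tested were higher and 2 lower in NOD dendritic cells, beside 37.7% of all genes higher. Of the 10, 5 (C1ra, Cfb, Hc, C3ar1 and C5ar1) were below the filter within the B cell libraries and had to come out higher. Itgax, also among the higher genes at 2127 against 2.90 CPM, is on the list of dendritic cell markers too. Cr2, among the lower ones, is on that of B cell markers, so the direction of these 2 differences was known in advance. C3, the central component, was at 26.2 ± 8.86 against 1.49 ± 0.204 CPM and properdin (Cfp) at 393 ± 22.1 against 51.4 ± 1.21 CPM. C1s1, a protease partner of C1q, had at most 0.0259 CPM on average in any group. The genes lower in dendritic cells were Cr2 and Cd55, which B cells carry on their surface. Between the strains none of 14 passed in dendritic cells by edgeR (3 at an unadjusted p under 0.05, 1 by DESeq2, 0 by limma-voom), and none of 10 in B cells (1, 0 and 0). The replicate block gave 1 call in dendritic cells and 0 in B cells.

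Genes for the uptake of dying cells were 12 of 17 higher and 3 lower in NOD dendritic cells, beside 37.7% of all genes higher. Of the 12, 4 (Timd4, Stab1, Stab2 and Dock1) were below the filter within the B cell libraries and had to come out higher. Axl, a relative of Mertk, was at 17.9 ± 2.96 against 2.02 ± 0.130 CPM and thus above Mertk in both cell types before any correction for length, and Pros1, which encodes a ligand of Mertk, at 16.1 ± 1.36 against 0.256 ± 0.104 CPM. Tyro3, the remaining receptor of this family, was at 0.211 and 0.359 CPM. Abca1, a lipid exporter, was lower in dendritic cells, at 9.94 ± 2.04 against 358 ± 23.3 CPM. Between the strains none of 16 passed in dendritic cells by edgeR (5 at an unadjusted p under 0.05, 1 by DESeq2, 1 by limma-voom), and Axl was at 25.1 ± 3.03 CPM in NOD.Idd2 (adjusted p = 0.0513). In B cells none of 13 passed by the 3 tools, with 2 at an unadjusted p under 0.05. The replicate block gave 2 calls in dendritic cells and 0 in B cells.

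Vcam1 binds integrins, and all 4 integrin chain genes listed as its partners were higher in dendritic cells in both strains. Over all genes, 37.7% were higher in NOD and 36.7% in NOD.Idd2. Among the 4, Itga4 was at 1484 ± 47.0 against 720 ± 11.1 CPM and Itgb1 at 462 ± 2.85 against 110 ± 6.96 CPM in NOD. None of the 4 passed between the strains in either cell type by edgeR, DESeq2 or limma-voom, with 0 at an unadjusted p under 0.05. The 12 remaining lists of cell types held 60 tested entries in dendritic cells and 56 in B cells, and none passed between the strains by edgeR in either, with 8 at an unadjusted p under 0.05, 1 by DESeq2 and 0 by limma-voom in each. With the replicate block 1 entry passed in each cell type.

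The mean profile of C1qa, C1qb and C1qc over the 12 libraries was compared with those of 10210 genes with at least 5 CPM on average in dendritic cells, and of the members whatever their level, by the root mean square difference of centred log2 CPM. The mean contains the C1q genes themselves, which draws it toward them, and C1qc (0.15) ranked 1, C1qa (0.25) 40 and C1qb (0.28) 65. Of the other members Vcam1 (0.21) ranked 9, Mertk (0.24) 32, Adgre1 (0.40) 200, Cd163 (0.66) 495, Hmox1 (0.91) 793, Spic (1.24) 1378 and Slc40a1 (1.37) 1712. These ranks largely restate the size of the difference between cell types, which is also one between sexes. In NOD its log2 value was 3.46 to 3.99 for the C1q genes, 3.38 for Vcam1 and 3.82 for Mertk. It was 3.96 for Adgre1, 4.32 for Cd163, 1.74 for Hmox1, 1.28 for Spic and 0.81 for Slc40a1. Ranks over 12 libraries therefore cannot show whether a gene varied with C1q within a cell type. The 6 nearest genes outside the members included Scarb1 (0.18), a lipoprotein receptor, Jup (0.18), a junction protein, Sowahc (0.19), Srgap3 (0.19) and Vps26b (0.20). Scarb1 was at 8.81 ± 0.188 CPM in NOD B cells and 95.8 ± 19.4 CPM in NOD dendritic cells. When only the 6 dendritic cell libraries were used, 0 of the 6 were among the nearest 6. Among the members Vcam1 then ranked 6951, Adgre1 9722, Mertk 370 and Cd163 10135, whereas Spic ranked 124, C1qa 26 and C1qb 14.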

How the data were processed

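Per the labels' protocols, Trizol served for extraction and a KAPA HyperPrep poly(A) kit for the libraries of splenic B cells and dendritic cells. The authors deposited raw counts, whole numbers per gene symbol, which were used here, and a normalized table, which was not. The submitters' processing notes name STAR (version 0.12.2) and the build GRCm38. The sources used here do not give the counting tool, annotation or use of strand.

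CPM were computed with TMM factors over 12 libraries in edgeR 4.0.16 (R 4.3.3). Genes were filtered with filterByExpr (minimum count 10, minimum total 15). Differences were tested by quasi-likelihood in edgeR (glmQLFTest), with p adjusted after Benjamini and Hochberg over all genes tested and a threshold of 0.05. Strain comparisons used the 6 libraries of a cell type, and cell type contrasts and the interaction a fit of 4 groups. Intervals are 95% intervals of the fits. Scripts were tested on simulated data. For profiles, log2 CPM had a prior count of 2.

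The members and lists were chosen with earlier results of these data known. Named are all members, called list genes, defining markers, genes nearest the C1q profile, and companion genes chosen after their values were seen. Groups and replicate numbers came from the sample titles. No pair of libraries in a group agreed within sampling noise (chi-square per gene 3.12 to 42.8).

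Replicate numbers are shared by the strains, and the labels state no pairing. For same-numbered B cell libraries, the correlation of deviations from the group mean was 0.628, 0.406 and 0.819, all above 0.1, though NOD 1 with NOD.Idd2 2 gave 0.434 and NOD 2 with NOD.Idd2 1 0.477. In dendritic cells the values were -0.004, 0.013 and 0.054, and pairs with different numbers ran from -0.064 to 0.072. Same-numbered dendritic cell libraries thus showed no shared deviation, which cannot exclude that they were paired. Alternatives were RLE factors, library size alone, no filter, 1 CPM in 3 libraries, DESeq2 1.42.0, limma-voom (limma 3.58.1), the block, a fit of 12 libraries and each library left out in turn. Dropping the B cell libraries numbered 3, and applying the alternatives to companion lists, were added after seeing the data.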

Additional observations from a re-analysis of the deposited data

How the results depend on the processing

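The number of members called between the cell types was 10 in each strain under every alternative run, and each of the 20 differences kept its direction and its call in all of them. Between the strains in dendritic cells the count of 1 (Cd163) went to 0 in the fit of all 12 libraries and ran from 0 to 1 when single libraries were left out. In B cells the count of 0 went to 1 (Adgre1) with DESeq2 and to 1 with the replicate block, and stayed at 0 when single libraries were left out. The replicate block changed no other call of a member. Calls over all genes in dendritic cells went from 186 to 700 without the filter, 296 with DESeq2, 94 in the fit of all 12 libraries and 63 to 332 with single libraries left out. In B cells they went from 24 to 122 with DESeq2, 156 with the block, 42 in the fit of all 12 libraries, 46 without both libraries numbered 3 and 13 to 18 with single libraries left out. For the interaction they went from 18 to 33 without the filter, 114 with DESeq2 and 7 to 19 with single libraries left out. Reversals of sign concerned strain values of uncalled members, and the cause was not tested. In dendritic cells C1qb was at 0.012 by limma-voom, and with single libraries left out C1qa ran from -0.26 to 0.10, C1qb from -0.17 to 0.059, C1qc from -0.22 to 0.11, Adgre1 from -0.18 to 0.094, Mertk from -0.024 to 0.12 and Spic from -0.028 to 0.13. In B cells the same ranges were -0.43 to 0.079 for C1qa, -0.46 to 0.065 for C1qb and -0.21 to 0.054 for Vcam1, and without both libraries numbered 3 C1qa was at 0.10, C1qc at 0.073 and Vcam1 at 0.16. In the interaction C1qa was at 9.54e-05 by limma-voom, and with single libraries left out C1qa ran from -0.26 to 0.25, C1qb from -0.14 to 0.40 and Mertk from -0.32 to 0.26. Low counts limit the precision in B cells, where Mertk had 6 to 14 counts a library and Cd163 and the C1q genes 15 to 46.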

Other observations

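Red cell transcripts were few in these isolates. The 9 erythroid genes in the table, among them the globins, summed to 17.1 ± 2.94 CPM in NOD dendritic cells, 20.2 ± 12.1 CPM in NOD.Idd2 dendritic cells and 10.6 ± 3.42 and 7.22 ± 0.941 CPM in the NOD and NOD.Idd2 B cells (SD, n = 3). Neutrophil genes summed to 23.2 ± 11.8 and 11.5 ± 2.17 CPM in the B cell groups and to 26.5 ± 4.84 and 29.2 ± 5.32 CPM in the dendritic cell groups, and plasmacytoid dendritic cell genes to 56.6 ± 8.21 and 60.2 ± 1.91 CPM in the latter. Of the lists of other cell types, that of B cells still summed to 602 ± 25.7 and 560 ± 24.7 CPM in the dendritic cell groups, of which Cd22 gave 428 and 408 CPM.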
